A study of Mus musculus with 24 samples.

Results

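Bound RNA at day 14 after bilateral kidney ischemia was compared with bound RNA at day 7. The comparison takes 6 of the 24 libraries of the series, 3 at each day, and all 40750 genes of the authors' RPKM table, of which 13721 reached 1 RPKM in at least 3 of the 24 libraries and were tested. RPKM is a read count scaled for gene length and library size. All mice were males aged 8 to 10 weeks on a mixed background, with the genotype Kim1-GCE+/-; EGFPL10a+/-. In these mice a tamoxifen-dependent Cre made from the Kim1 (Havcr1) gene switches on a ribosomal protein, L10a, fused to EGFP. Tamoxifen was given 6 hours before and 24 hours after surgery, so the tag marks cells that had Kim1 activity around the injury. Both renal pedicles were clamped for 20 minutes, and different mice were taken at day 7 and at day 14. Ribosomes were pulled from kidney homogenate with beads that carry an antibody to GFP. The RNA on the beads is bound RNA, and the rest, which stands for the whole kidney, is unbound RNA. Sham mice had the surgery without the clamp, carried the same alleles, and serve here as a reference level.

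When a proximal tubule cell is injured it loses its brush border, turns down transport and oxidative metabolism, and turns on injury genes such as Havcr1. Surviving cells then divide and, over days to weeks, rebuild the mature programme. Cells that do not complete this repair can keep making chemokines and matrix signals. Day 7 against day 14 asks how the RNA on the ribosomes of the marked cells differs between the earlier and the later part of this repair.

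No gene passed an adjusted p of 0.05 between the days (0 of 13721, or 0% called). The smallest adjusted p was 0.155, and 868 genes (6.33%) had an unadjusted p under 0.05, 393 of them higher (2.86%) and 475 lower (3.46%) at day 14. By list, injury, mitosis, p53 and chemokine genes had medians below that of all genes, and enzymes of amino acid, fatty acid and drug metabolism had medians above it. Because no gene was called, values are given below as higher or lower, with each library's level. Log2 folds are fitted values of log2 (RPKM + 0.5), day 14 over day 7, given with their standard error (SE). This scale understates the fold of genes with low levels.

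The third day 14 library stood apart from its group. Its expression correlated with the mean of the other day 14 bound libraries at 0.901, while these correlated with each other at 0.975. The median spread of a gene (SD, log2 scale) was 0.42 among the 3 day 14 libraries, 0.22 among the 3 day 7 libraries and 0.18 among the day 14 libraries without the third. Unbound RNA with the same number stood apart too, with a correlation of 0.941 against 0.980. Folds and list medians of bound RNA are therefore given with and without this library. Leaving it out still called 0 genes, with a smallest adjusted p of 0.065 and 1335 genes at an unadjusted p under 0.05, 984 of them lower at day 14. When libraries were instead weighted by how closely they follow the fit, which gave the third day 14 library the lowest weight of all, 0.126, the same test called 1140 genes (8.31%), 383 higher (2.79%) and 757 lower (5.52%). These weights are estimated from the same values that are tested, and their estimate stopped before convergence. Weights estimated gene by gene, added after seeing the data, called 650 genes.

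The summed level of 29 macrophage markers was 1491, 1208 and 1888 RPKM in the day 7 bound libraries and 1078, 833 and 6273 at day 14. For 27 markers of T and NK cells the sums were 17.7, 22.6 and 18.9 at day 7 and 17.3, 19.0 and 137 at day 14, and for 25 fibroblast and pericyte markers 289, 138 and 154 against 162, 115 and 969. Neutrophil marker sums were 7.10, 12.1 and 10.5 against 4.10, 2.19 and 73.9. In contrast, 41 transport genes of the proximal tubule summed to 2227, 1975 and 1708 RPKM at day 7 and to 2532, 3557 and 1177 at day 14. Markers of the S1 and S2 segments of the proximal tubule summed to 1306, 1610 and 1402 RPKM at day 7 and to 1559, 3365 and 1713 at day 14. Those of the S3 segment summed to 28526, 18775 and 14488 against 49005, 36679 and 11932. Most of the S3 sum in each of these libraries came from Kap, a member of that list whose levels are given below. The third day 14 library was thus the highest of the 6 for markers of macrophages, T cells, fibroblasts and neutrophils. That library was also the lowest for proximal transport and S3 markers, but not for S1 and S2 markers. Its unbound partner was high for the same immune and stromal lists, with a macrophage sum of 6798 RPKM against 1623 to 4168 in the other unbound libraries of the 2 days. In bulk RNA, fewer cells of a type and less RNA per cell cannot be told apart. The part of these other cell types in the gene results below was not tested, beyond the values without the third library.

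**Figure D1:**
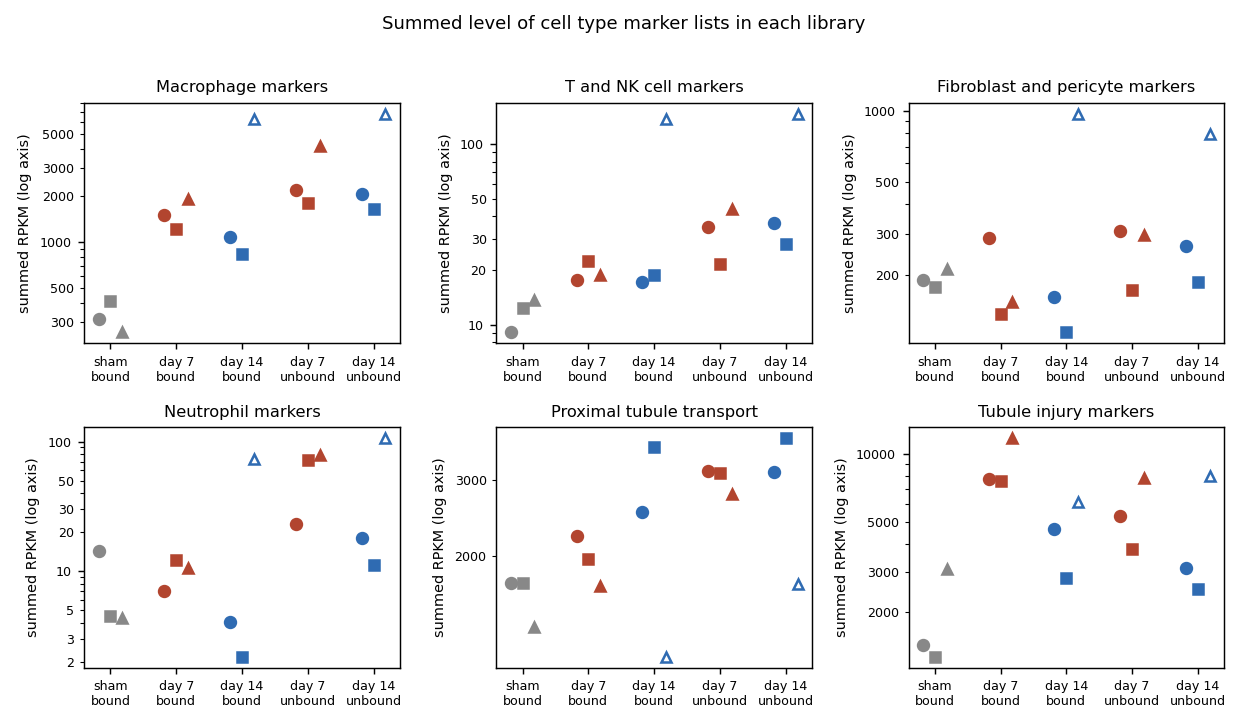
Summed RPKM (log axis) of 6 marker lists in each library of sham, day 7 and day 14 bound RNA and of day 7 and day 14 unbound RNA, where circles, squares and triangles are libraries 1, 2 and 3 and the open triangle is the third day 14 library. That library lies highest for macrophage markers in bound RNA (6273 RPKM) and lowest for proximal tubule transport (1177 RPKM).

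The bound RNA held the defining genes of the proximal tubule at both days. Slc34a1, the phosphate carrier of the brush border, stood at 443, 628 and 538 RPKM at day 7 and at 580, 1275 and 393 at day 14. Genes that define other segments were also present, with Umod of the thick ascending limb at 341, 228 and 176 RPKM and at 264, 205 and 452. Bound RNA was not richer than unbound RNA in either gene: at day 7 unbound RNA held 1027 to 1089 RPKM of Slc34a1 and 624 to 881 of Umod. Cd79a, which defines B cells, was listed at 0 in 1 library of each day and lay at 0.23 RPKM or below in the others. The whole list of B and plasma cell markers was not near 0. It summed to 371, 243 and 246 RPKM at day 7 and to 1076, 284 and 313 at day 14.

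The injury programme of the tubule stood lower at day 14 in most of its genes. All 42 injury markers were tested, and 34 had a fold below 0. The 3 libraries of each day did not overlap in 12 of the 42, all lower at day 14, and in none that was higher, where 7.05% of all genes lay wholly lower and 5.39% wholly higher. The list's median log2 fold was -0.72 with all libraries and -1.11 without the third day 14 library, beside 0.02 and -0.11 for all genes. By library, the median difference from the day 7 mean was -0.80 and -1.35 in the first and second day 14 libraries and 0.12 in the third, so the list as a whole was not lower in that library. With library weights 20 of the 42 were called lower and 0 higher, where 5.52% and 2.79% of all genes were.

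Havcr1 encodes KIM-1, the phosphatidylserine receptor that lets injured tubule cells clear debris, and its gene also drives the Cre of this model. It stood at 131, 132 and 248 RPKM at day 7 and at 53.6, 33.7 and 21.7 RPKM at day 14, beside a sham mean of 2.87. Every day 14 library was below every day 7 library, and the third day 14 library was the lowest of all. The log2 fold was -2.24 (SE 0.61, adjusted p = 0.369), and -1.92 without the third library. Unbound RNA held 38.1, 54.9 and 125 RPKM of Havcr1 at day 7 and 18.4, 20.6 and 34.3 at day 14. In the third day 14 library alone the bound level of Havcr1 was below that of its unbound partner. Tnfrsf12a, the receptor for the cytokine TWEAK, stood at 128, 131 and 170 RPKM at day 7 and at 56.0, 31.6 and 44.1 at day 14. The groups were again apart, with a log2 fold of -1.72 (SE 0.40, adjusted p = 0.207) and -1.74 without the third library.

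Sprr1a, a small proline-rich protein of stressed epithelia, was listed at 45.1, 35.8 and 100 RPKM at day 7 and at 15.3, 5.49 and 15.7 at day 14. Its log2 fold was -2.25 (SE 0.51, adjusted p = 0.207), and -2.5 without the third library. The keratin Krt20 went from 24.9, 45.3 and 88.6 RPKM to 17.6, 7.14 and 24.1, with a log2 fold of -1.64 (SE 0.52, adjusted p = 0.522). Its closest day 7 and day 14 libraries, 24.9 and 24.1, nearly met. S100a6, a calcium-binding protein, was one of the most abundant injury genes, at 1230, 1820 and 2250 RPKM against 570, 333 and 510, with a log2 fold of -1.90 (SE 0.53, adjusted p = 0.369). The small heat shock protein Hspb1 stood at 28.3, 80.0 and 117 RPKM at day 7 and at 18.4, 9.33 and 12.5 at day 14, a log2 fold of -2.27 (SE 0.59, adjusted p = 0.304). Without the third library the log2 folds were -2.0 for Krt20, -1.98 for S100a6 and -2.25 for Hspb1. In all of these genes the day 14 libraries, the third included, lay below the day 7 libraries and above the sham mean.

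Other injury genes overlapped between the days. For Spp1, Vcam1 and Sox9 the overlap came from the third day 14 library. Spp1, which encodes osteopontin, stood at 3538, 2390 and 4947 RPKM against 2117, 1210 and 2786, with a log2 fold of -0.85 (SE 0.45, adjusted p = 0.771) and -1.12 without that library. Vcam1, an adhesion molecule of tubule cells that fail to repair, was at 15.2, 26.6 and 37.8 RPKM against 11.3, 9.12 and 25.8 (log2 fold -0.81, SE 0.55, adjusted p = 0.834, and -1.25 without it). Sox9, a developmental factor re-expressed after injury, was at 5.63, 5.69 and 9.35 RPKM against 3.79, 2.03 and 9.06. Its log2 fold was -0.62 (SE 0.50, adjusted p = 0.855), and -1.13 without the third library. Lcn2, the secreted iron-siderophore binder NGAL, overlapped also without that library. It was listed at 35.8, 12.2 and 21.0 RPKM against 19.9, 11.6 and 58.2, and its log2 fold of 0.18 (SE 0.65) became -0.45 without the third library.

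**Figure D2:**
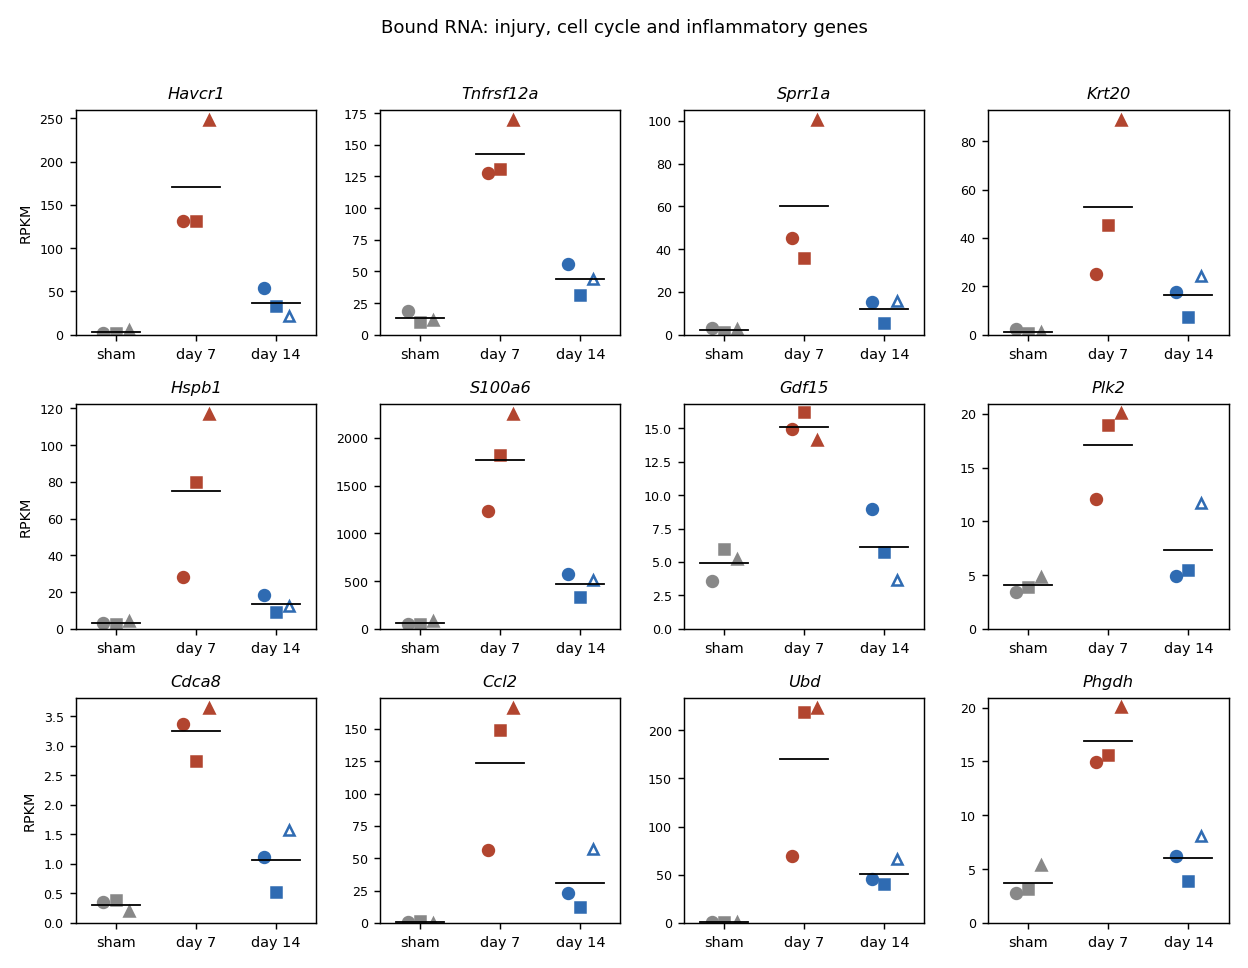
RPKM of 12 genes in each bound library of sham, day 7 and day 14 (circles, squares and triangles are libraries 1, 2 and 3; the open triangle is the third day 14 library; the bar is the group mean). In every panel except Ccl2 the 3 day 14 libraries lie below the 3 day 7 libraries, as for Havcr1 with 21.7 to 53.6 RPKM at day 14 and 131 to 248 at day 7.

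Against sham, which uses the same day 7 and day 14 libraries and so is not independent of the comparison of days, 25 of the 42 injury markers rose at day 7 (15.2% of all genes rose) and 15 at day 14 (8.71%). Tnfrsf12a rose by 3.42 on the log2 scale at day 7 (adjusted p = 1.39e-05) and by 1.70 at day 14 (adjusted p = 0.0097). Gsta1, a glutathione transferase, was higher than sham by 2.43 at day 7 (adjusted p = 0.00111) and by 0.42 at day 14 (adjusted p = 0.556). Gsta1 itself stood at 2.76, 6.96 and 4.25 RPKM at day 7 and at 0.644, 0.647 and 0.849 at day 14, a log2 fold of -2.01 (SE 0.45, adjusted p = 0.196), and its day 14 libraries were close to the sham mean of 0.494. Gdf15, a stress cytokine of the TGF-beta family, behaved alike in its levels, with 15, 16.2 and 14.1 RPKM at day 7, 8.98, 5.78 and 3.66 at day 14 and a sham mean of 4.94. Its log2 fold between the days was -1.31 (SE 0.34, adjusted p = 0.304). Leaving out the third library, the log2 folds were -2.09 for Gsta1 and -1.01 for Gdf15.

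Genes of G2 and mitosis were lower at day 14, from low levels. Of 36 listed genes 35 were tested, 33 had a fold below 0, and in 12 the day 14 libraries lay wholly below the day 7 libraries, with none wholly above. Among all genes 7.05% lay wholly lower and 5.39% wholly higher. The list's median log2 fold was -0.68, and -1.08 without the third day 14 library. The first and second day 14 libraries had medians of -0.78 and -1.31 from the day 7 mean and the third 0.03. Cdca8, the borealin subunit of the chromosomal passenger complex, stood at 3.37, 2.75 and 3.64 RPKM at day 7 and at 1.12, 0.515 and 1.57 at day 14, a log2 fold of -1.31 (SE 0.35, adjusted p = 0.33). Birc5, or survivin, a partner in the same complex, stood at 5.39, 3.90 and 6.52 RPKM against 1.56, 1.19 and 3.70 (log2 fold -1.21, SE 0.46, adjusted p = 0.657). Tpx2, a spindle assembly factor, had a log2 fold of -1.05 (SE 0.38, adjusted p = 0.651). Each of these genes was apart between the days, and in each the third library was the highest of day 14. With that library left out, the log2 folds were -1.54 for Cdca8, -1.60 for Birc5 and -1.39 for Tpx2.

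Foxm1, the transcription factor that drives many of these genes, was listed at 0.945, 1.33 and 1.10 RPKM at day 7 and at 0.345, 0.190 and 0.548 at day 14. Its log2 fold was -0.93 (SE 0.37, adjusted p = 0.679), or -1.08 without the third library, and the groups did not overlap. Mki67, the proliferation antigen Ki-67, overlapped: 2.17, 2.51 and 1.58 RPKM against 0.950, 0.288 and 2.08, with a log2 fold of -0.84 (SE 0.39, adjusted p = 0.771) and -1.26 without the third library. Genes of G1 and S phase, 34 of 36 tested, had a smaller median of -0.26, or -0.63 without the third library. Of the 34, 3 were wholly lower and none wholly higher, which is near the 7.05% of all genes that were wholly lower. Against sham, 17 of the 35 G2 and M genes rose at day 7, where 15.2% of all genes rose, and 2 at day 14, where 8.71% did. With library weights 13 of the 35 were called lower between the days, where 5.52% of all genes were.

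Promoters of the G2 and M genes are known for CCAAT boxes, which bind the factor NF-Y, and those of many chemokine genes for sites of NF-kB. The 150 bases before the start are shown for 8 genes, from RefSeq on GRCm38.p6, with the motif in capitals. These genes were chosen because they hold it. The first 4 are mitotic genes that were wholly lower at day 14. Of these 4, only the levels of Cdca8 are given here. Cdca8 is at chr4:124936918-124937067 (minus strand), Aurka at chr2:172370571-172370720 (minus), Ccnb1 at chr13:100786487-100786636 (minus) and Ube2c at chr2:164769779-164769928 (plus). Capitals mark CCAAT, or ATTGG where it lies on the other strand.
Cdca8: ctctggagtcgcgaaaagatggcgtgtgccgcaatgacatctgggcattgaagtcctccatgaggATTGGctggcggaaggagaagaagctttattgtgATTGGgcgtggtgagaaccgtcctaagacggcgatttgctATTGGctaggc
Aurka: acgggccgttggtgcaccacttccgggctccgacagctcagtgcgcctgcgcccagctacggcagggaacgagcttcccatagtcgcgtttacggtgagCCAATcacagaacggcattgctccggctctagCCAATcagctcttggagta
Ccnb1: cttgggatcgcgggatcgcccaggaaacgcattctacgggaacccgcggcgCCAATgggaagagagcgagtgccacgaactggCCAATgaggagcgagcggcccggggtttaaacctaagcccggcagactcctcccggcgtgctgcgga
Ube2c: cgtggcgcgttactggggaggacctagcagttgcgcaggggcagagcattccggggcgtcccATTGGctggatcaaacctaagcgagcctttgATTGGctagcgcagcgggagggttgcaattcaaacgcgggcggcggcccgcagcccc
Cdca8 has 3 matches in this window and each of the other 3 genes has 2. In the 250 bases before the start, 24 of the 31 G2 and M genes with an entry held CCAAT on either strand, or 77.4%, beside 37.5% of all 27025 genes with an entry. The share was also high for G1 and S genes, at 18 of 28 with an entry, or 64.3%. A match is a description of these letters and not evidence of binding.

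The other 4 promoters belong to inflammatory genes and to Sprr1a. Ccl20 is at chr1:83116616-83116765 (plus), Cxcl1 at chr5:90891095-90891244 (plus) and Ubd at chr17:37193742-37193891 (plus), with capitals on the kappaB motif of NF-kB on either strand. Sprr1a is at chr3:92485882-92486031 (minus), with capitals on the AP-1 motif TGANTCA, which reads the same on both strands.
Ccl20: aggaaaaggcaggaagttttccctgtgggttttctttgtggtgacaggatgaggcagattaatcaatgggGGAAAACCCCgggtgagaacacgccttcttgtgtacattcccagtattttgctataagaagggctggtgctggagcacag
Cxcl1: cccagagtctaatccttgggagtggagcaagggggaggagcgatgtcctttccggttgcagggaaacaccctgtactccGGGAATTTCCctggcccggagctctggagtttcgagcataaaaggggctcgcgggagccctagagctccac
Ubd: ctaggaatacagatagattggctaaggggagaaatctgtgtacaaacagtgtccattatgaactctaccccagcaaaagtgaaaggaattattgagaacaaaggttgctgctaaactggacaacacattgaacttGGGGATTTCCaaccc
Sprr1a: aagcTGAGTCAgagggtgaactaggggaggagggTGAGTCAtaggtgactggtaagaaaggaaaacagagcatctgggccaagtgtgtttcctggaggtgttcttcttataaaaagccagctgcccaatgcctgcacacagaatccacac
The kappaB motif was found for 12 of 31 genes of the chemokine and NF-kB list with an entry (38.7%) and for 5.67% of all genes. AP-1 was found for 7 of 32 injury markers with an entry (21.9%) and for 7.82% of all genes. For the chemokine and NF-kB list it was found for a like share, 7 of 31 (22.6%). A gene with several starts was counted if any of its promoters held the motif.

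Of the p53 list, 27 of 28 genes were tested. At day 14, 9 were wholly lower and 2 wholly higher, where 7.05% and 5.39% of all genes were. The median log2 fold was -0.48, and -0.55 without the third library, so this list depended little on it. The medians of the 3 day 14 libraries were -0.39, -0.74 and -0.19 from the day 7 mean. Psrc1, a microtubule protein of dividing cells, stood at 3.88, 4.11 and 4.03 RPKM at day 7 and at 1.60, 0.585 and 1.08 at day 14, with a log2 fold of -1.56 (SE 0.33, adjusted p = 0.163). Plk2, a stress-induced kinase, stood at 12.1, 19.0 and 20.1 RPKM against 4.89, 5.45 and 11.7 (log2 fold -1.23, SE 0.30, adjusted p = 0.267). Cdkn1a, the cell cycle inhibitor p21, stood at 53, 73.6 and 99.9 RPKM against 41.5, 26.7 and 30.8 (log2 fold -1.16, SE 0.51, adjusted p = 0.744). The death effector Bax stood at 284, 243 and 236 RPKM against 195, 168 and 152 (log2 fold -0.57, SE 0.28, adjusted p = 0.771). In all 4 genes the days did not overlap. Without the third library the log2 folds were -1.58 for Psrc1, -1.60 for Plk2, -1.12 for Cdkn1a and -0.48 for Bax. Cdkn1a at day 14 was still above sham, by 2.66 on the log2 scale (adjusted p = 0.00309).

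Chemokine and cytokine genes were high at day 7. At day 14 the median of their list was below the day 7 mean in the first and second libraries and above it in the third. Not every gene followed, since Ccl2, Ccl5, Cxcl1, Ubd and Ccl20 lay below their day 7 means in the third library too. Of 45 genes on this list 38 were tested, with 2 wholly lower and 2 wholly higher at day 14, which is no larger a share than the 7.05% and 5.39% of all genes. The median log2 fold was -0.41, and -0.96 without the third library. Its 3 library medians were -0.77, -1.24 and 0.64. Ccl2, which draws monocytes, stood at 56.4, 149 and 166 RPKM at day 7 and at 22.8, 12.1 and 57.2 at day 14, with a log2 fold of -2.13 (SE 0.70, adjusted p = 0.563). The third day 14 library, at 57.2, was just above the lowest of day 7, at 56.4. Ccl5, a T cell chemokine, stood at 40.5, 281 and 209 RPKM against 14.2, 9.27 and 56.7, the largest fold named here at -2.73 (SE 0.75, adjusted p = 0.369), and -3.48 without the third library. Cxcl1, which draws neutrophils, stood at 20.2, 32.0 and 43.9 RPKM against 12.9, 7.24 and 20.6 (log2 fold -1.26, SE 0.44, adjusted p = 0.617). Leaving out the third library, the log2 folds were -2.71 for Ccl2 and -1.61 for Cxcl1.

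Ubd and Ccl20 were the genes of this list that were wholly lower, and Cxcl9 and Cxcl12 those that were wholly higher. Ubd, a ubiquitin-like modifier also called FAT10, stood at 69.4, 219 and 223 RPKM at day 7 and at 45.1, 40.3 and 66.6 at day 14, with a log2 fold of -1.59 (SE 0.55, adjusted p = 0.617). Ccl20 stood at 2.95, 4.90 and 5.80 RPKM against 1.77, 0.335 and 2.45 (log2 fold -1.46, SE 0.54, adjusted p = 0.652). With that library left out, the log2 folds were -1.80 for Ubd and -1.83 for Ccl20. Even so, Ubd at day 14 was above sham by 5.18 on the log2 scale (adjusted p = 2.72e-05) and Ccl2 by 4.71 (adjusted p = 0.000513). Over the list 19 of 38 genes rose against sham at day 7 (15.2% of all genes) and 18 at day 14 (8.71%). C3, the central complement protein and a member of the injury list, stood at 45.0, 59.4 and 63.6 RPKM at day 7 and at 29.2, 26.2 and 87.0 at day 14. The log2 fold of C3 of -0.44 (SE 0.44, adjusted p = 0.881) became -0.99 without the third library.

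Of the AP-1 family and the integrated stress response, single genes were lower and the lists as a whole were split. Fosl1, an AP-1 subunit, stood at 1.77, 5.92 and 5.46 RPKM at day 7 and at 1.47, 0.363 and 0.577 at day 14 (log2 fold -1.86, SE 0.48, adjusted p = 0.304). Junb, its partner, stood at 12, 19.7 and 20.6 RPKM against 8.16, 4.48 and 11.1 (log2 fold -1.14, SE 0.47, adjusted p = 0.699). Without the third library the log2 folds were -1.76 for Fosl1 and -1.41 for Junb. Of 21 tested genes of the AP-1 and immediate early list, 3 were wholly lower and 1 wholly higher, and the median of -0.32 went to -0.88 without the third library. Phgdh, the first enzyme of serine synthesis and a target of the stress factor ATF4, stood at 14.9, 15.6 and 20.0 RPKM against 6.21, 3.89 and 8.02. Its log2 fold was -1.45 (SE 0.33, adjusted p = 0.207), and -1.67 without the third library. Chac1, which breaks down glutathione under the same response, had a log2 fold of -1.34 (SE 0.45, adjusted p = 0.581) and the secreted chaperone Manf one of -0.70 (SE 0.25, adjusted p = 0.617), both with no overlap. With that library left out, the log2 folds were -1.47 for Chac1 and -0.67 for Manf. The stress response list as a whole, 27 genes, had 4 wholly lower and 3 wholly higher, where 7.05% and 5.39% of all genes were. Its median was -0.18, or -0.53 without the third library.

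**Figure D3:**
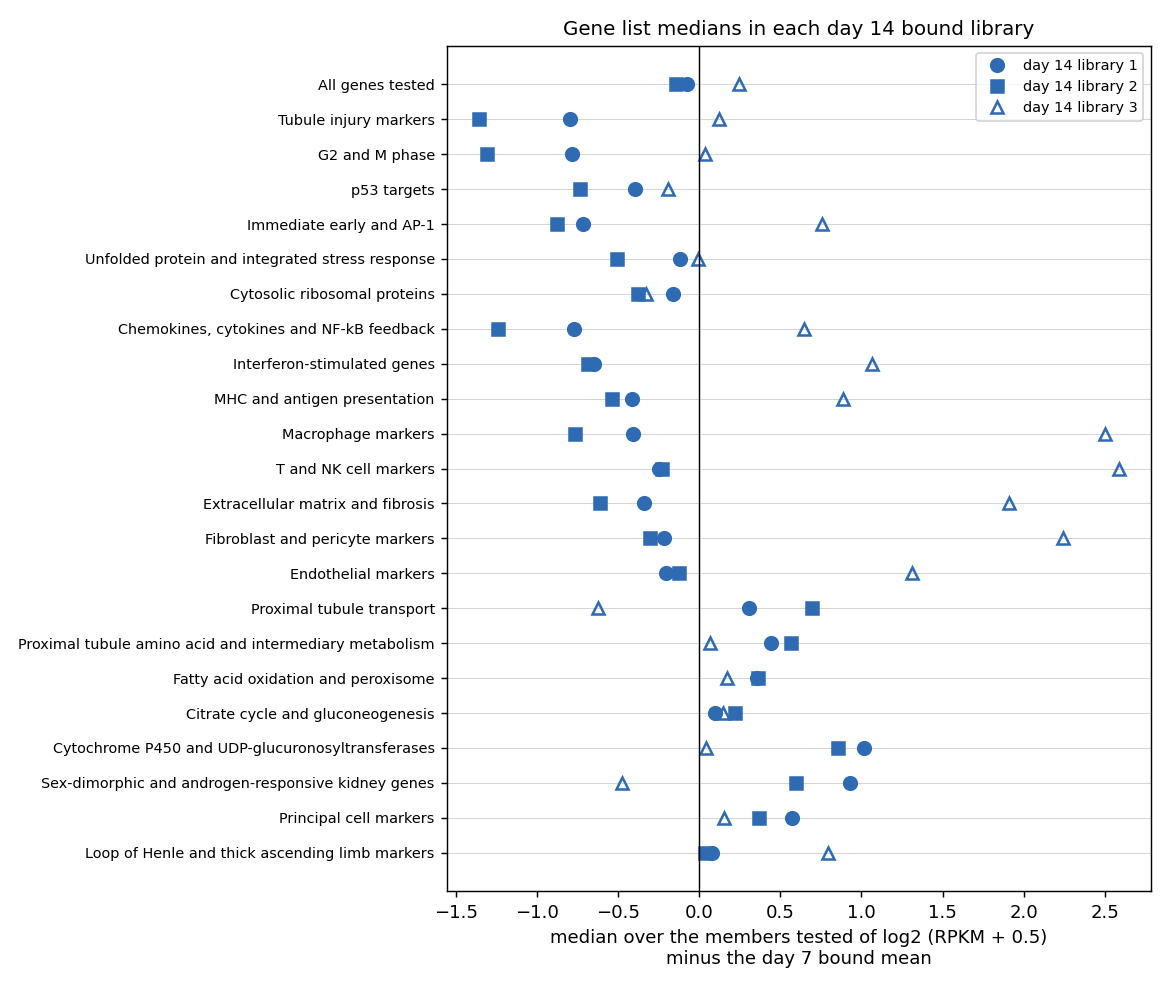
Median over the tested members of each gene list of log2 (RPKM + 0.5) in each day 14 bound library minus the day 7 bound mean (circle, square and open triangle are day 14 libraries 1, 2 and 3). Injury markers lie at -0.80, -1.35 and 0.12, and macrophage markers at -0.41, -0.76 and 2.5.

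Metabolic enzymes of the proximal tubule stood higher at day 14. Of 40 tested genes of amino acid and intermediary metabolism, 9 were wholly higher and 1 wholly lower, beside 5.39% and 7.05% of all genes. A fold above 0 was found for 31. The median log2 fold was 0.28, and 0.47 without the third day 14 library. Hpd, which breaks down tyrosine, stood at 3.84, 4.54 and 2.59 RPKM at day 7 and at 25.2, 13.5 and 8.81 at day 14, with a log2 fold of 1.88 (SE 0.75, adjusted p = 0.679). Its sham mean was 61.3, and day 14 lay between day 7 and that mean. Aass, the first enzyme of lysine breakdown, stood at 38.6, 50.5 and 38.3 RPKM against 69.2, 98.5 and 83.8 (log2 fold 0.97, SE 0.31, adjusted p = 0.537). Kmo, of tryptophan breakdown, stood at 7.52, 8.39 and 5.34 RPKM against 15.3, 14.5 and 13.0 (log2 fold 0.98, SE 0.38, adjusted p = 0.672). Both Aass and Kmo were still below sham at day 14, by a log2 fold of -0.95 (adjusted p = 0.048) for Aass and -1.18 (adjusted p = 0.0422) for Kmo. Leaving out the third library, the log2 folds were 2.22 for Hpd, 0.96 for Aass and 1.04 for Kmo.

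The opposite held for Cyp27b1 of the same list, the enzyme that makes active vitamin D. It stood at 10.8, 14.0 and 33.9 RPKM at day 7 and at 2.89, 3.66 and 11.3 at day 14, with a log2 fold of -1.69 (SE 0.67, adjusted p = 0.672), and the groups overlapped through the third library. Without it the log2 fold was -2.24 for Cyp27b1.

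Fatty acid oxidation genes were higher in nearly all members. All 49 genes were tested, 46 had a fold above 0, and 12 were wholly higher and none wholly lower, where 5.39% of all genes lay wholly higher. The median log2 fold was 0.33, and 0.38 without the third library, and the medians of the 3 day 14 libraries were 0.36, 0.36 and 0.17. Etfa, which passes electrons from fatty acid oxidation to the respiratory chain, stood at 127, 98.1 and 114 RPKM against 191, 189 and 162, with a log2 fold of 0.68 (SE 0.22, adjusted p = 0.522), and 0.75 without the third library. Of the 49 genes, 26 fell against sham at day 7 (7.55% of all genes fell) and 16 at day 14 (4.58%).

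Enzymes of the citrate cycle and gluconeogenesis followed with 7 of 26 wholly higher and none wholly lower, beside 5.39% and 7.05% of all genes. Their median was 0.12, or 0.16 without the third library. Suclg2, a subunit of succinate-CoA ligase, stood at 32.6, 31.6 and 30.6 RPKM against 41.9, 56.4 and 53.3 (log2 fold 0.66, SE 0.19, adjusted p = 0.419). Dld, shared by the large dehydrogenase complexes, stood at 52.3, 55.2 and 55.0 RPKM against 74.1, 84.0 and 106 (log2 fold 0.68, SE 0.24, adjusted p = 0.617). The days were apart for both, the third library included. With that library left out, the log2 folds were 0.61 for Suclg2 and 0.54 for Dld. Nuclear genes of the respiratory chain had a median of 0.03 over 39 genes, or 0.20 without the third library, with library medians of 0.13, 0.25 and -0.41.

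Cytochrome P450 and UDP-glucuronosyltransferase genes had the highest median of the metabolic lists, 0.72 over 25 tested genes, and 0.90 without the third library. Of these, 5 were wholly higher and 1 wholly lower, beside 5.39% and 7.05% of all genes. Cyp2a5 stood at 5.15, 3.91 and 2.48 RPKM at day 7 and at 12.4, 24.4 and 13.5 at day 14, with a log2 fold of 1.97 (SE 0.48, adjusted p = 0.255). Ugt3a2 stood at 87.6, 55.6 and 60.5 RPKM against 175, 158 and 80.7 (log2 fold 0.97, SE 0.30, adjusted p = 0.486), and Cyp4b1 at 184, 123 and 108 against 273, 321 and 183 (log2 fold 0.90, SE 0.32, adjusted p = 0.617). Both overlapped through the third library. Cyp4a12b was the one lower, at 2.27, 3.41 and 7.09 RPKM against 1.58, 1.43 and 1.07 (log2 fold -1.24, SE 0.37, adjusted p = 0.448). P450 genes have near-identical copies, so reads may be split among them and single members are uncertain. Among detoxifying enzymes outside this list, Gsta3 stood at 16.6, 11.8 and 10.7 RPKM against 26.4, 28.3 and 25.9 (log2 fold 1.04, SE 0.32, adjusted p = 0.486), the reverse of its relative Gsta1. Without the third library the log2 folds were 2.09 for Cyp2a5, 1.32 for Ugt3a2, 1.13 for Cyp4b1, -1.12 for Cyp4a12b and 1.07 for Gsta3.

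**Figure D4:**
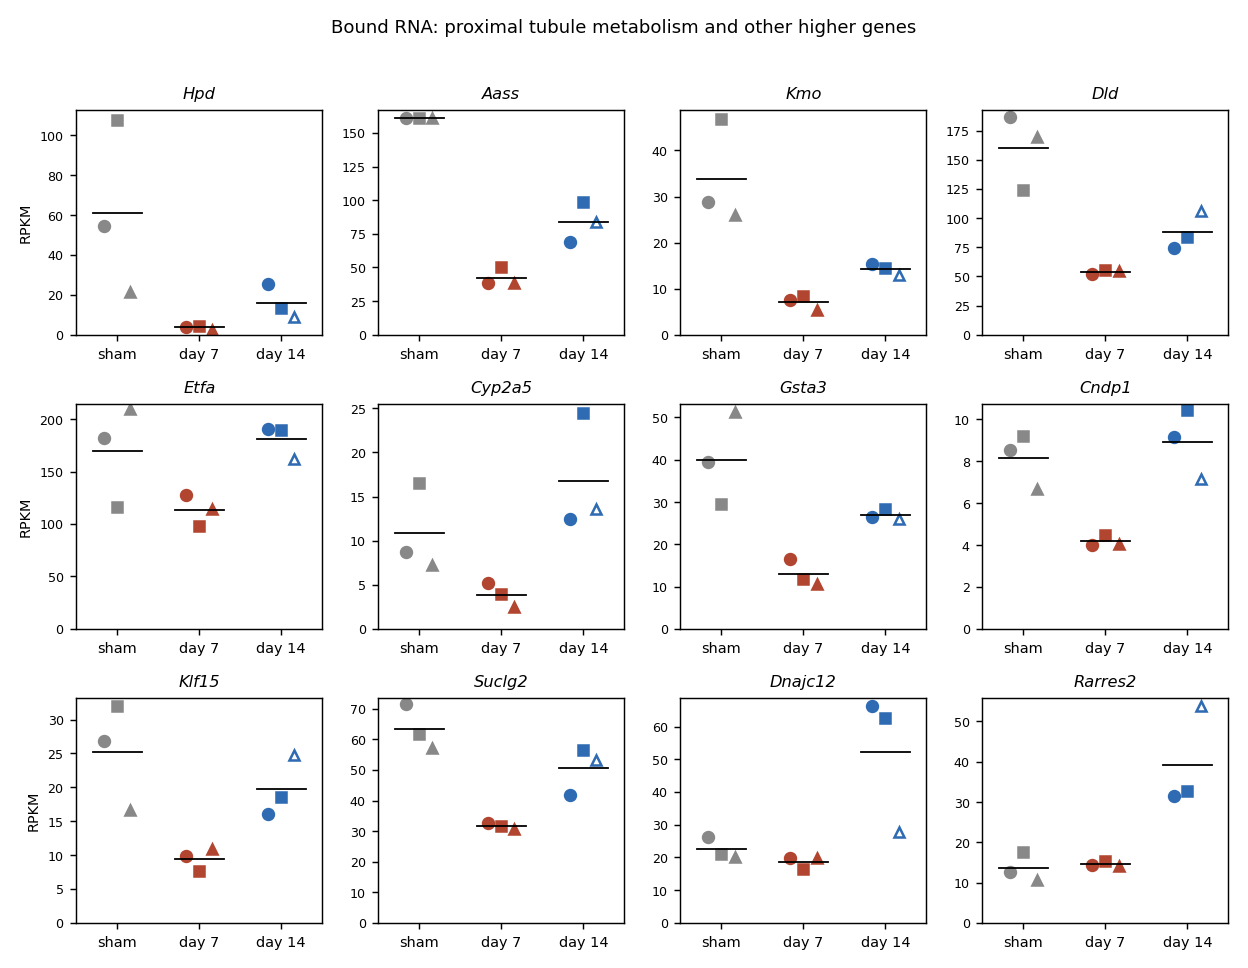
RPKM of 12 genes in each bound library of sham, day 7 and day 14 (circles, squares and triangles are libraries 1, 2 and 3; the open triangle is the third day 14 library; the bar is the group mean). In every panel the 3 day 14 libraries lie above the 3 day 7 libraries, as for Aass with 69.2 to 98.5 RPKM at day 14 and 38.3 to 50.5 at day 7.

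Transport genes, which carry glucose, phosphate, amino acids and drugs across the tubule, were split by library. Of 40 tested, none was wholly higher and 1 was wholly lower, where 5.39% and 7.05% of all genes were. The median log2 fold was 0.13, and 0.63 without the third library, with library medians of 0.31, 0.69 and -0.62. Slc34a1, whose levels stand above, had a log2 fold of 0.32 (SE 0.39, adjusted p = 0.903), and 0.70 without the third library. Lrp2, the endocytic receptor megalin, stood at 25.7, 26.7 and 16.1 RPKM against 27.4, 40.3 and 22.3 (log2 fold 0.38, SE 0.34, adjusted p = 0.872). Slc5a2, the glucose carrier SGLT2, stood at 22.7, 25.4 and 22.5 RPKM against 15.9, 37.6 and 8.47, and its log2 fold of -0.44 (SE 0.40) went to 0.06 without the third library. Slc22a8, the organic anion transporter OAT3, stood at 25.6, 16 and 10.8 RPKM against 32.6, 70.6 and 20.8 (log2 fold 1.12, SE 0.46, adjusted p = 0.699). The second day 14 library was the highest of the 6 for all 4 of these genes. The list of brush border enzymes had a median of 0.02 over 24 tested genes, or 0.29 without the third library, with 14 above 0 and 10 below. Of these 2 were wholly higher and 1 wholly lower, and the day 14 library medians were 0.30, 0.33 and -0.40. From this list the peptidase Cndp1 was apart between the days, at 4.01, 4.47 and 4.06 RPKM against 9.16, 10.4 and 7.16 (log2 fold 0.99, SE 0.34, adjusted p = 0.617). Leaving out the third library, the log2 folds were 0.57 for Lrp2, 1.51 for Slc22a8 and 1.14 for Cndp1.

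Transcription factors of the proximal tubule had a median of 0.31 over 21 tested genes. Of these 5 were wholly higher and none wholly lower, where 5.39% and 7.05% of all genes were. Without the third library the median was 0.14, and the 3 day 14 libraries lay at 0.18, 0.22 and 0.50 from the day 7 mean. Klf15, a glucocorticoid-responsive factor of amino acid and fat metabolism, stood at 9.85, 7.59 and 10.9 RPKM at day 7 and at 16, 18.5 and 24.7 at day 14. Its log2 fold was 1.02 (SE 0.26, adjusted p = 0.304), and the third library was the highest. Hnf4a, which maintains proximal identity, was listed at 124, 119 and 108 RPKM against 135, 136 and 97.0 (log2 fold 0.05, SE 0.31, adjusted p = 0.987). Ppara, which drives fatty acid oxidation, stood at 9.30, 8.65 and 8.35 RPKM against 10.0, 19.3 and 8.72 (log2 fold 0.43, SE 0.45, adjusted p = 0.89), and its coactivator Ppargc1a at 9.01, 12.4 and 9.54 against 10.6, 11.2 and 17.3 (log2 fold 0.30, SE 0.27, adjusted p = 0.869). Ppargc1a had not reached sham, from which it differed by a log2 fold of -1.20 at day 14 (adjusted p = 0.00782). With that library left out, the log2 folds were 0.85 for Klf15, 0.21 for Hnf4a, 0.64 for Ppara and 0.09 for Ppargc1a.

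Kap, an androgen-responsive gene of the proximal tubule, was the most abundant gene named here and made up most of the S3 marker sum above. It stood at 24707, 16917 and 12309 RPKM at day 7 and at 44318, 33832 and 10249 at day 14. The third day 14 library was the lowest of the 6 and the other day 14 libraries were the highest. The sex-dimorphic and androgen-responsive list had a median of 0.38 over 28 tested genes, and 0.76 without that library. On this list 3 genes were wholly higher and none wholly lower, beside 5.39% and 7.05% of all genes.

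Other lists turned on the third library. Macrophage markers had a median log2 fold of 0.49 over 28 tested genes with all libraries and of -0.53 without the third. Matrix genes went from 0.30 to -0.53 over 40 genes and fibroblast and pericyte markers from 0.55 to -0.31 over 21. Cd68, a lysosomal protein of macrophages, stood at 7.77, 7.73 and 8.48 RPKM at day 7 and at 3.47, 2.23 and 36.8 at day 14, a log2 fold of -0.20 (SE 0.71, adjusted p = 0.978) and -1.36 without the third library. Col1a1, fibrillar collagen, stood at 61.9, 19.8 and 20.0 RPKM against 21.7, 13.2 and 191 (log2 fold 0.39, SE 0.82, adjusted p = 0.952), and -0.77 without the third library. Pecam1, of endothelium, stood at 3.24, 2.19 and 1.56 RPKM against 2.4, 1.83 and 8.02 (log2 fold 0.49, SE 0.35, adjusted p = 0.846), and -0.08 without it. Without that library the medians of the macrophage, matrix, fibroblast and endothelial lists were below 0, the last at -0.15. The 11 tested B and plasma cell markers had a median of 0.37, or 0.61 without the third library, and the 3 day 14 libraries lay at 1.08, -0.055 and 0.38 from the day 7 mean.

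Cd3e and Lyz1, of the T cell and macrophage lists, were higher in every day 14 library than in any of day 7. Cd3e, a chain of the T cell receptor complex, stood at 0.204, 0.209 and 0.323 RPKM at day 7 and at 0.957, 1.69 and 3.96 at day 14, with a log2 fold of 1.70 (SE 0.49, adjusted p = 0.396) and 1.26 without the third library. Lyz1, a lysozyme, stood at 0.298, 0 and 0.367 RPKM against 1.31, 1.13 and 12.6 (log2 fold 2.27, SE 0.56, adjusted p = 0.267), and 1.29 without it. Of the T and NK list 13 of 27 genes were tested, of which 2 were wholly higher and 1 wholly lower. For all genes these shares were 5.39% and 7.05%. Lyz1 was the only one of 28 tested macrophage markers that was wholly higher. Without the third library 16 of the 28 were wholly lower and 1 wholly higher, beside 25.8% and 11.4% of all genes.

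Lists of other nephron segments had medians above 0, in part through the third library. Without it the median went from 0.26 to 0.0005 for 17 thick ascending limb markers, from 0.38 to 0.0082 for 16 intercalated cell markers and from 0.30 to 0.48 for 16 principal cell markers. These lists had 1, 1 and 2 members wholly higher and 0, 0 and 1 wholly lower, beside 5.39% and 7.05% of all genes. Slc12a1, the sodium, potassium and chloride carrier of the thick ascending limb, stood at 12.3, 11.5 and 7.64 RPKM at day 7 and at 15.3, 14.7 and 32.7 at day 14 (log2 fold 0.90, SE 0.29, adjusted p = 0.54), and 0.53 without the third library. Gata3, a collecting duct factor, stood at 8.85, 4.81 and 5.18 RPKM against 13.9, 11 and 14.0 (log2 fold 1.03, SE 0.35, adjusted p = 0.616), and 0.97 without it. Both were apart between the days. Aqp2, the water channel of principal cells, stood at 39.8, 41.8 and 23.9 RPKM against 57.7, 44.6 and 30.4 (log2 fold 0.32, SE 0.71, adjusted p = 0.954), and 0.57 without the third library. Umod had a log2 fold of 0.28 (SE 0.36, adjusted p = 0.91), and -0.04 without the third library. For principal cells 11 of 16 tested markers fell against sham at day 7 (7.55% of all genes) and 4 at day 14 (4.58%). The sham reference was uneven for this list, with marker sums of 469, 838 and 2672 RPKM in the 3 sham bound libraries. At day 7 the sums were 410, 349 and 264, so these counts lean on the sham libraries with the higher sums.

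Cytosolic ribosomal protein genes were lower as a group by a small amount, and 42 of 44 had a fold below 0. Wholly lower were 16 and wholly higher none, beside 7.05% and 5.39% of all genes. Their median log2 fold was -0.32, and -0.29 without the third library, with library medians of -0.16, -0.37 and -0.33. Rpl18 stood at 19.0, 19.7 and 18.9 RPKM against 15.2, 13.1 and 13.0 (log2 fold -0.47, SE 0.27, adjusted p = 0.808). These genes have many processed copies in the genome, so their counts are uncertain. Against sham 41 of the 44 rose at day 7 (15.2% of all genes) and 33 at day 14 (8.71%). Perilipin 2 (Plin2), which coats lipid droplets, was also wholly lower, at 36.7, 41.9 and 75.3 RPKM against 27.9, 26.1 and 34.9 (log2 fold -0.72, SE 0.35, adjusted p = 0.771). Leaving out the third library, the log2 folds were -0.43 for Rpl18 and -0.84 for Plin2.

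The genes with the smallest adjusted p, chosen here after their values were seen, were mostly outside the lists. Serpinb9b, a serpin, had the smallest unadjusted p. It stood at 1.24, 5 and 7.61 RPKM at day 7 and at 0.233, 0.0878 and 0.499 at day 14, with a log2 fold of -2.5 (SE 0.45, adjusted p = 0.155). Prph, the intermediate filament peripherin, stood at 1.59, 6.60 and 7.45 RPKM against 0.406, 0.383 and 0.528 (log2 fold -2.39, SE 0.46, adjusted p = 0.155). Guca1a, a guanylate cyclase activator, stood at 8.03, 11.1 and 8.22 RPKM against 1.58, 1.09 and 3.33 (log2 fold -2.03, SE 0.42, adjusted p = 0.155). In all 3 the days were apart in every library, and the first day 7 library was the lowest of its day. Without the third library the log2 folds were -2.70 for Serpinb9b, -2.46 for Prph and -2.39 for Guca1a.

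Among higher genes chosen in the same way, Rarres2, the chemoattractant chemerin, stood at 14.3, 15.4 and 14.0 RPKM at day 7 and at 31.4, 32.7 and 53.7 at day 14, with a log2 fold of 1.36 (SE 0.28, adjusted p = 0.155). Its sham mean was 13.6, so it was higher at day 14 than at either sham or day 7. Sucnr1, the receptor for succinate, stood at 4.59, 4.81 and 3.51 RPKM against 8.53, 12.9 and 8.16 (log2 fold 1.09, SE 0.24, adjusted p = 0.196), also above its sham mean of 3.77. Dnajc12, a co-chaperone of aromatic amino acid hydroxylases, stood at 20.0, 16.5 and 19.8 RPKM against 66.3, 62.6 and 27.6 (log2 fold 1.36, SE 0.31, adjusted p = 0.207). In these 3 genes every day 14 library lay above every day 7 library and above the sham mean, which for Dnajc12 was 22.5. With that library left out, the log2 folds were 1.11 for Rarres2, 1.21 for Sucnr1 and 1.76 for Dnajc12.

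Over all genes, 1708 (12.4%) had no overlap between the 3 libraries of each day, 740 higher (5.39%) and 968 lower (7.05%). Of these 1708 genes, 1148 had a mean of at least 5 RPKM, among them 32 with a log2 fold above 1 and 80 with one below -1. Without the third day 14 library, 1568 lay wholly higher (11.4%) and 3543 wholly lower (25.8%).

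Unbound RNA at the same days showed the same comparison in the whole kidney. One gene was called there (0.00729%), Gdpd3, a lysophospholipase D, at 26.5, 26.5 and 40.2 RPKM at day 7 and 8.03, 8.21 and 4.87 at day 14. It fell by 2.07 on the log2 scale (adjusted p = 0.0157), and in bound RNA its log2 fold was -0.77 (adjusted p = 0.679), and -0.38 without the third library. The call of Gdpd3 in unbound RNA was lost after median-ratio rescaling and when any of 5 of the 6 unbound libraries was left out. It was also lost with the replicate block, which called 3 other genes, all higher. In unbound RNA the list medians were -0.31 for injury markers, -0.89 for G2 and M genes and -0.08 for p53 targets, beside 0.03 for all genes. They were 0.03 for fatty acid oxidation and 0.07 for P450 and UDP-glucuronosyltransferase genes. For 3 other lists the unbound median had the opposite sign to the bound one. These were amino acid and intermediary metabolism (-0.16 against 0.28), citrate cycle and gluconeogenesis (-0.16 against 0.12) and proximal transport (-0.10 against 0.13). The difference between the fractions in the change from day 7 to day 14 was tested for every gene, and 0 of 13721 (0%) were called by limma, with 212 at an unadjusted p under 0.05. This fit leaves out that bound and unbound RNA came from the same mice. A limma fit of the differences between same-numbered bound and unbound libraries also called 0, with 654 at an unadjusted p under 0.05. A gene can thus not be said to differ between the fractions, and that includes Havcr1, with a log2 fold of -2.24 in bound and -1.42 in unbound RNA, and Plk2, with -1.23 in bound RNA and 0.00 in unbound.

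**Figure D5:**
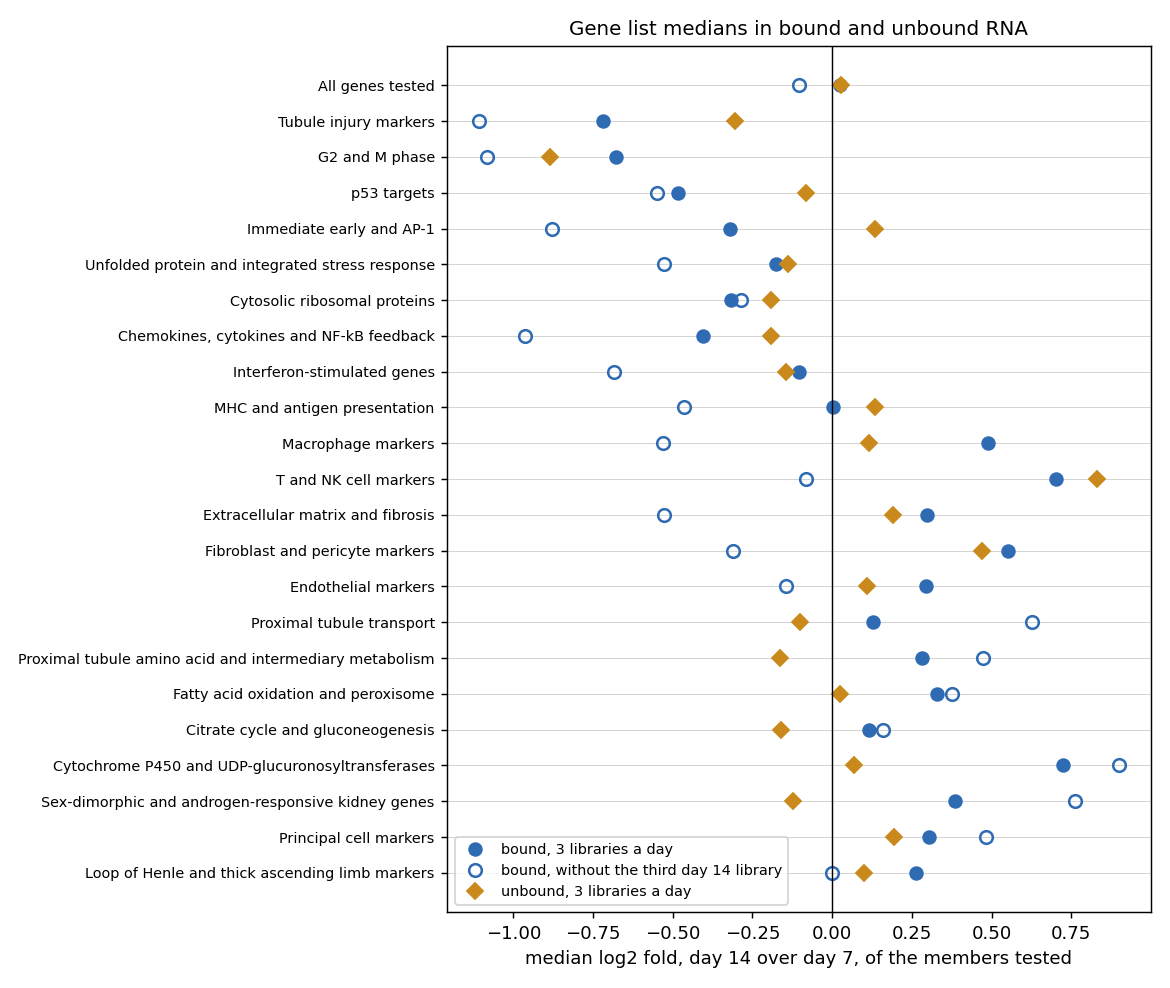
Median log2 fold, day 14 over day 7, of the tested members of each list in bound RNA (filled circles), in bound RNA without the third day 14 library (open circles) and in unbound RNA (diamonds). Fatty acid oxidation lies at 0.33, 0.38 and 0.03, and macrophage markers at 0.49, -0.53 and 0.12.

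For reference, against sham 3116 genes (22.7%) were called in bound RNA at day 7, 2080 higher and 1036 lower, and 1824 (13.3%) at day 14, 1195 higher and 629 lower. Both counts share libraries with the comparison of days and with each other.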

How the data were processed

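Bound and unbound RNA of 3 mice in each of 4 groups was sequenced as 24 libraries with a low-input kit, per the labels' protocols. The submitters' processing notes name STAR 2.0.4b, Subread, featureCounts 1.4.5 and edgeR, without their roles; no build of the genome is named there. The authors deposited RPKM values, 1 column a library. Of 41831 lines, 1081 identical repeats were dropped. Depth, inferred from the spacing of low values with GENCODE M21 exon lengths, was 17.2 to 23.9 M reads in the 6 libraries compared. It is approximate, since 75.2% to 76.5% of low values came out whole.

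Testing used limma 3.58.1 in R 4.3.3 on log2 (RPKM + 0.5), for genes that reached 1 RPKM in 3 or more libraries. All 24 libraries were fitted as 8 group means with an abundance trend, and genes were called at a Benjamini-Hochberg adjusted p under 0.05. The script was tested on simulated data. Same-numbered day 7 and day 14 libraries, which come from different mice, deviated together (r = 0.135, 0.166 and 0.145 across genes), and a replicate block called 0 genes.

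The comparison, its 55 gene lists (1501 of 1506 entries matched) and the naming rule were chosen with earlier results of these data known. The rule named the called genes with the largest folds (none qualified), up to 4 members of each list with the smallest p and 25 fixed genes, and allowed further list members as examples. Alternatives were pseudocounts of 0.1 and 1, other filters and scalings, the 6 libraries alone, library weights and leaving out each library. A list is described by its counts and median, with no test. Promoter sequences are from RefSeq. Some items are not reported here.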

Additional observations from a re-analysis of the deposited data

How the results depend on the processing

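The comparison of bound RNA called 0 genes as reported, and also with pseudocounts of 0.1 and 1, median-ratio rescaling, a filter of 5 RPKM and the 6 libraries alone. The replicate block called 0 genes in bound RNA, 0 for the difference between fractions and 3 in unbound RNA, all higher, so that Gdpd3 was no longer called there. In bound RNA quantile normalization called 4 genes, no filter 6, library quality weights 1140 and, chosen after seeing the data, weights estimated gene by gene 650. The first weights came from an estimate that stopped before convergence. Leaving out 1 library called 0 to 6 genes, the 6 (all lower, among them Serpinb9b and Prph) without day 7 library 1. For the difference between fractions no filter called 2 genes. Unbound RNA called 0 genes after median-ratio rescaling, 2 after quantile normalization and 0 to 2 with 1 library left out. Of 75 genes with a fold followed over 17 alternatives, 67 kept their sign. Log2 folds of the other 8 with 1 library left out ran from -0.45 to 0.69 for Lcn2, -0.031 to 0.21 for Hnf4a, -0.15 to 0.70 for Slc34a1, -0.99 to 0.058 for Slc5a2, -1.36 to 0.52 for Cd68, -0.77 to 1.14 for Col1a1, -0.081 to 0.86 for Pecam1 and -0.040 to 0.54 for Umod. With only the libraries compared and without day 14 library 3, added after seeing the data, Lcn2 was -0.45, Col1a1 -0.77, Pecam1 -0.081, Slc5a2 0.058 and Umod -0.040. Library weights gave Lcn2 -0.043 and Col1a1 -0.35, and weights gene by gene -0.067 and -0.36. The cause was not tested. Over all genes the SE of the fold had a median of 0.303, and 3 libraries a day limit the precision.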

Other observations

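Other lists are given as values, with no explanation. Protein genes of the mitochondrial genome, 7 of 13 tested, had a fold above 0 in 7 and a median log2 fold of 0.58, or 0.39 without the third day 14 library. Markers of the S1 and S2 segments of the proximal tubule had a median of 0.41 over 16 genes, or 0.65 without that library, and the 3 day 14 libraries lay at 0.14, 1.11 and 0.05 from the day 7 mean. The S3 segment had a median of 0.13 over 18 markers, or 0.76 without it. There the same libraries lay at 1.08, 0.36 and -0.75, so the first library was the highest for S3 and the second for S1 and S2. Glycolysis genes had a median of -0.21 over 19 genes, or -0.33 without the third library. Of the 19, 2 were wholly lower and 1 wholly higher, where 7.05% and 5.39% of all genes were. Genes of the circadian clock had a median of 0.21 over 22 genes, or 0.14 without the third library. Of the 22, 3 were wholly higher and 1 wholly lower, beside the same shares of all genes.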
